A study of Canis lupus familiaris with 23 samples.

Results

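Canine osteosarcoma cell lines were compared with primary canine osteosarcomas on the same type of Affymetrix array. The 17 osteosarcoma samples, 2 labelled as cell lines and 15 labelled as tumors, were taken by these labels from a series of 23 arrays, and every gene with a named probe set was compared. The other 6 arrays were 2 arrays from each of 3 normal organs (kidney, liver, lymph node), which entered the fit for their spread and are given as a reference. Per the study's methods the tumors were primary osteosarcomas taken from pet dogs before chemotherapy, and the canine lines were MC-KOSA and BW-KOSA. The labels name the lines differently and do not say which is which, so they are called cell line 1 and cell line 2. Each line was represented by 1 array, so the spread between the lines is a spread between lines and not between cultures of a line. The lines were plated overnight in culture dishes before extraction, and the labels give no treatment or engineered allele for either group. The methods describe Trizol followed by a column for tumors and a column kit alone for the lines, while the submitted labels give Trizol for both.

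Osteosarcoma is a malignant tumor whose cells lay down bone matrix, and its primary growth in the dog also holds macrophages, bone-resorbing osteoclasts, vessels, fibroblasts and remnants of normal tissue. A cell line holds the descendants of the tumor cells that grew out in culture. A gene that is lower in a line than in a tumor can therefore belong to a cell type that the culture lacks, or to the tumor cell itself. In bulk RNA, fewer cells of a type and less RNA of a gene per cell cannot be told apart.

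The values were log2 expression values after robust multi-array averaging, and each difference is the mean of the 2 lines minus the mean of the 15 tumors on this log2 scale, with its standard error (SE). A difference of 1 is thus a 2-fold change. A gene was called when its Benjamini-Hochberg adjusted p from limma was under 0.01 and both lines lay on the same side of the tumor median. Of 6540 genes, 382 (5.84%) were called higher in the cell lines and 191 (2.92%) were called lower. Over all 23836 probe sets tested, 899 (3.77%) were higher and 596 (2.50%) were lower. The median difference over all genes was 0.10. The lower genes differed by more: their median difference was -1.76, against 1.44 for the higher genes, and 84 of 191 lower genes against 62 of 382 higher genes were at least 4-fold apart. Both lines lay above all 15 tumors for 738 genes (11.3% of all) and below all 15 for 541 genes (8.27%). Among the called genes this held for 349 of the 382 higher and 185 of the 191 lower genes.

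These counts rested on both lines. Without cell line 1 the fit called 103 genes higher and 53 lower, and without cell line 2 it called 107 higher and 34 lower. Called in the full comparison and again with either line left out were 37 of the higher and 17 of the lower genes, and 19 of them are named below and marked as such. Many genes have several probe sets, and the values given are those of the brightest one unless stated. Of 99 called genes that the naming rule takes, 45 had another probe set: in 13 at least 1 other passed in the same direction, in 32 no other passed, and in 0 did another pass in the opposite direction. When each array was centred on its own median, the calls moved to 499 higher and 149 lower, so the higher share of all gene calls went from 66.7% to 77.0%, and that of all probe set calls from 60.1% to 75.5%. That centring raised the median of all genes from 0.10 to 0.21.

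The array controls set the lines apart from the tumors. The 4 hybridization controls, bacterial and phage RNAs added in fixed amounts to each labelled sample, read higher in both lines than on all 21 tissue arrays, and for BioB, the most dilute, the lines read 9.72 and 10.49 against 6.13 to 8.70 in the tumors (exact permutation p = 0.0147, two-sided, the smallest that 136 arrangements allow; adjusted over 5 measures, 0.0184). The 5′ index, which is the drop of signal from the 3′ to the 5′ probe sets of actin and Gapdh, was 0.49 and 0.85 in the lines, in the range of the 8 tumors with a full 5′ signal (-0.32 to 0.80) or just above it, and under that of the other 7 tumors (3.15 to 4.70). With arrays of full 5′ signal alone, 328 genes were higher and 95 were lower, and 51 of 99 called genes that the naming rule takes lost their call in this smaller set of arrays, among them CD68 (adjusted p = 0.0377), MMP9 (0.0387), ASPN (0.0335), FOS (0.0228), AURKA (0.0265) and TPX2 (0.0345). The 19 genes named below as called without either line all kept their call on these arrays (highest adjusted p = 0.00457). The part of these controls, of RNA extraction and of culture in the differences below was not tested, and extraction and culture cannot be told apart from the group.

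**Figure D1:**
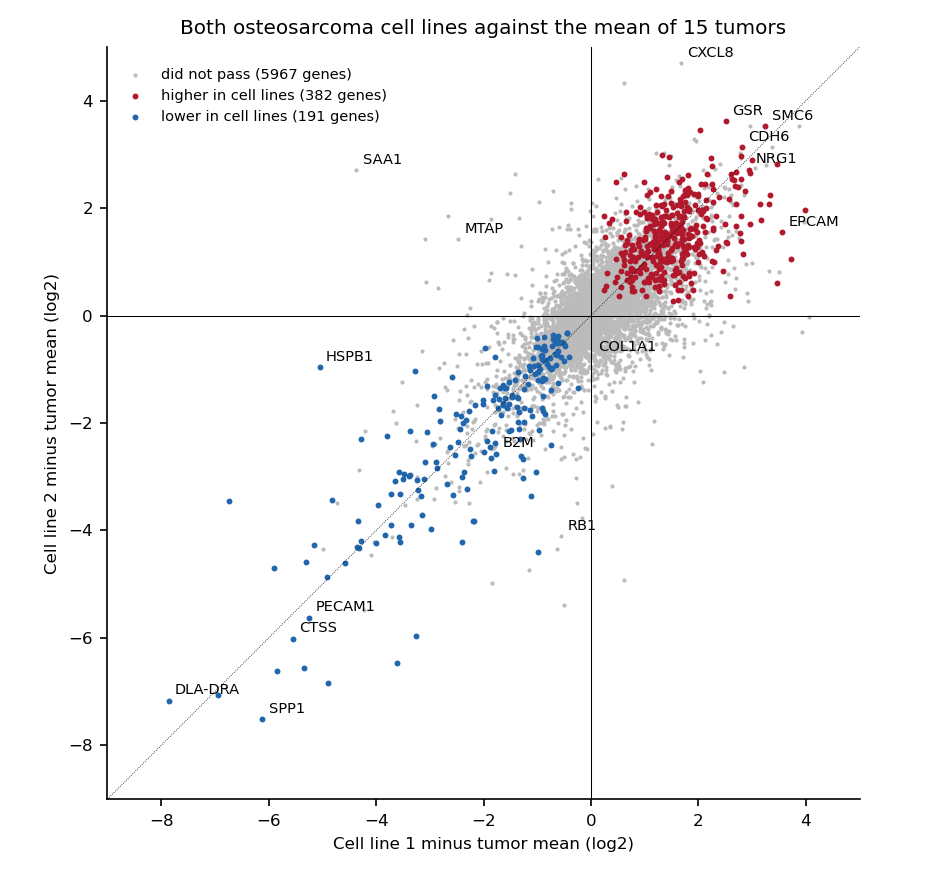
Each of 6540 genes by its log2 value in cell line 1 minus the tumor mean (x axis) and in cell line 2 minus the tumor mean (y axis), with higher genes in red, lower genes in blue, all others in grey and equal differences on the dotted line. The 382 higher and 191 lower genes lie to the upper right and to the lower left of 0, the lower ones reach further from 0 than the higher ones, and genes such as SAA1, MTAP and RB1 lie off the diagonal because the lines differ.

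To separate genes of cell types that the cultures lack from other genes, the 191 lower genes were put into 3 classes. The first held members of 10 marker lists of immune, osteoclast, vascular, muscle, blood and fat cells. The second held genes outside these lists whose values over the 15 tumors rose and fell with the mean of at least 1 of 5 cell type lists (Pearson r of 0.6 or more, after centring within the 2 classes of 5′ index). The third held the rest. They held 23, 46 and 122 genes, or 12%, 24.1% and 63.9% of the lower genes. Their median differences were -3.96, -2.23 and -1.45, so the listed genes were the furthest below the tumors.

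Of the 128 measured genes in the 10 lists, 23 were lower (18.0%, against 2.92% of all genes) and 0 were higher in limma's test. At an unadjusted p under 0.05, 45 were lower and 2 were higher. No share over all genes is given for an unadjusted p, here or below, so these counts have no background beside them. Among genes outside the lists, 46 of the lower ones tracked a cell type score over the tumors (27.4%), against 718 of all 6412 unlisted genes (11.2%) and 13 of the 382 higher genes (3.40%). The scores that the 46 followed best were those of macrophages (17 genes), endothelium (10), osteoclasts (8), lymphocytes (6) and pericytes with smooth muscle (5). These shares describe 15 tumors that share their mixture of cell types, and no test was made on them. They were also not matched for level in the tumors. Lower genes were called for reading higher in the tumors than in the lines, while other genes can read near the floor in the tumors. Such genes have little room to follow a score, so the shares cannot be compared apart from level.

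Macrophage genes and the MHC class II genes of antigen-presenting cells were the largest group of listed losses. In the macrophage and myeloid list 10 of 23 measured members were lower (43.5%, against 2.92% of all genes) and 0 higher. The median difference was -2.70 against 0.10 over all genes. Both lines lay below all 15 tumors for 18 of the 23, against 8.27% of all genes. In the MHC class II list 4 of 5 members were lower, with a median difference of -4.13. The mean level of the macrophage list was 4.75 in both lines and 6.45 to 8.58 in the tumors, and that of the MHC class II list was 4.72 and 5.17 in the lines and 7.10 to 10.3 in the tumors. The groups did not overlap for either list. The number of macrophage genes called was 2 without cell line 1, 2 without cell line 2 and 6 on arrays of full 5′ signal, and that of MHC class II genes was 1, 2 and 2.

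DLA-DRA, the alpha chain of the class II molecule, read 3.01 in cell line 1 and 3.70 in cell line 2, against 8.53 to 12.40 in the tumors (median 11.04). It had the largest difference of all genes (difference -7.51 ± 0.74, adjusted p = 1.87e-06), and it kept its call without either line. CTSS, cathepsin S, which trims the class II invariant chain, read 3.84 in cell line 1 and 3.37 in cell line 2, against 7.99 to 10.39 in the tumors (median 9.41) (difference -5.78 ± 0.53, adjusted p = 1.03e-06), and also kept its call without either line. Each line lay more than 4 log2 units below the lowest tumor for both genes. CSF1R, the receptor of macrophage colony-stimulating factor, read 3.91 in cell line 1 and 4.80 in cell line 2, against 7.65 to 11.60 in the tumors (median 9.03) (difference -4.71 ± 0.80, adjusted p = 0.000631). LYZ, lysozyme, read 3.52 in cell line 1 and 3.56 in cell line 2, against 6.15 to 11.12 in the tumors (median 8.17) (difference -4.88 ± 0.95, adjusted p = 0.00206). CD68, a lysosomal glycoprotein of macrophages and osteoclasts, read 5.24 in cell line 1 and 5.01 in cell line 2, against 6.37 to 11.63 in the tumors (median 9.23) (difference -4.12 ± 0.96, adjusted p = 0.00688). For all 3 genes the groups were apart, but CD68 reached low levels in some tumors. CD14 (difference -2.70 ± 0.41, adjusted p = 0.00025), TYROBP (difference -2.90 ± 0.50, adjusted p = 0.000705), DLA-DQA1 (difference -4.24 ± 0.83, adjusted p = 0.00209) and HLA-DRB1 (difference -4.13 ± 0.72, adjusted p = 0.000857) were lower as well. Other probe sets passed as well for CTSS (3 of 4), CSF1R (1 of 2), TYROBP (1 of 1) and HLA-DRB1 (1 of 4), while those of DLA-DRA (-4.99 and -0.78) and DLA-DQA1 (-1.77) did not. CD163, a scavenger receptor of macrophages, did not pass (difference -3.32 ± 0.95, adjusted p = 0.0235), although both lines, at 4.33 and 4.14, were below the lowest tumor at 5.44. Leaving out cell line 1 raised the adjusted p of CSF1R, LYZ, CD68, TYROBP, DLA-DQA1 and HLA-DRB1 to between 0.0113 and 0.0708, and leaving out cell line 2 raised that of LYZ, CD68, CD14, TYROBP and DLA-DQA1 to between 0.0179 and 0.0883.

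Markers of endothelium formed the next group, with 6 of 16 measured members lower (37.5%, against 2.92% of all genes), 0 higher and a median difference of -1.49. Of the 16, 2 were called without cell line 1, 2 without cell line 2 and 4 on arrays of full 5′ signal. PECAM1, the junction protein CD31, read 3.73 in cell line 1 and 3.35 in cell line 2, against 7.35 to 10.94 in the tumors (median 9.01) (difference -5.43 ± 0.78, adjusted p = 0.000138). AQP1, a water channel of small vessels, read 6.23 in cell line 1 and 5.97 in cell line 2, against 8.79 to 11.60 in the tumors (median 9.96) (difference -3.96 ± 0.50, adjusted p = 3.63e-05). Both lines were well below every tumor for PECAM1 and AQP1, and both genes kept their call without either line. Of 6 other probe sets of PECAM1 1 passed, and of 3 others of AQP1 none did in limma's test (differences of -1.10, -0.50 and -0.15), with both lines within the range of the tumors in 2 of the 3. SPARCL1 (difference -4.59 ± 0.95, adjusted p = 0.00323) and ECSCR, an endothelial surface protein (difference -2.57 ± 0.52, adjusted p = 0.00261), were lower too, with an adjusted p of 0.0487 and 0.04 without cell line 1 and of 0.0498 and 0.0458 without cell line 2. The other probe sets of SPARCL1 (-2.51 to -0.27) and ECSCR (-0.36) did not pass. VWF, stored in endothelial granules, read 5.09 and 4.89 in the lines and at least 5.92 in the tumors but did not pass (difference -2.06 ± 0.60, adjusted p = 0.0272), nor did TEK, the angiopoietin receptor (difference -1.002 ± 0.42, adjusted p = 0.112).

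In other lists single members carried the calls. For comparison, 2.92% of all genes were called lower. Among pericyte and smooth muscle genes 1 of 10 was lower, with a list median of -0.57. This was ACTA2, smooth muscle actin, which read 5.94 in cell line 1 and 4.72 in cell line 2, against 9.22 to 12.75 in the tumors (median 11.65) (difference -5.95 ± 0.86, adjusted p = 0.000134; adjusted p = 0.0116 without cell line 2). Of 8 osteoclast genes 1 was lower, MMP9, a gelatinase of osteoclasts and myeloid cells, which read 4.91 in cell line 1 and 4.13 in cell line 2, against 6.31 to 12.98 in the tumors (median 11.27) (difference -6.23 ± 1.34, adjusted p = 0.00402; adjusted p = 0.0427 without cell line 1 and 0.0742 without cell line 2). The other 2 probe sets named for MMP9 did not move, at -0.10 and 0.01. CTSK, the collagen-cleaving protease cathepsin K, read 10.43 in cell line 1 and 8.82 in cell line 2, against 9.34 to 12.90 in the tumors (median 11.78) and did not pass (difference -2.15 ± 0.62, adjusted p = 0.0239), with cell line 1 inside the range of the tumors. Of 17 lymphocyte genes 1 was lower, CD48, also expressed on myeloid cells (difference -1.64 ± 0.37, adjusted p = 0.00586; adjusted p = 0.0731 and 0.0707 without cell line 1 and 2), and the list median was -0.37. The other probe set of CD48 did not pass, at -0.86. CD3E (difference -0.58 ± 0.30, adjusted p = 0.198), CD3D (difference -0.77 ± 0.49, adjusted p = 0.314) and CD4 (difference -0.57 ± 0.21, adjusted p = 0.075) did not pass, and the tumors themselves read low for CD3D, with a median of 4.90. None of 30 skeletal muscle, 8 adipocyte, 6 erythroid and platelet or 5 neutrophil and mast cell genes was called in limma's test, with list medians of -0.37, -1.05, 0.05 and -0.23. At an unadjusted p under 0.05, 1 skeletal muscle gene was lower, and among the neutrophil and mast cell genes 2 were lower and 1 was higher.

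**Figure D2:**
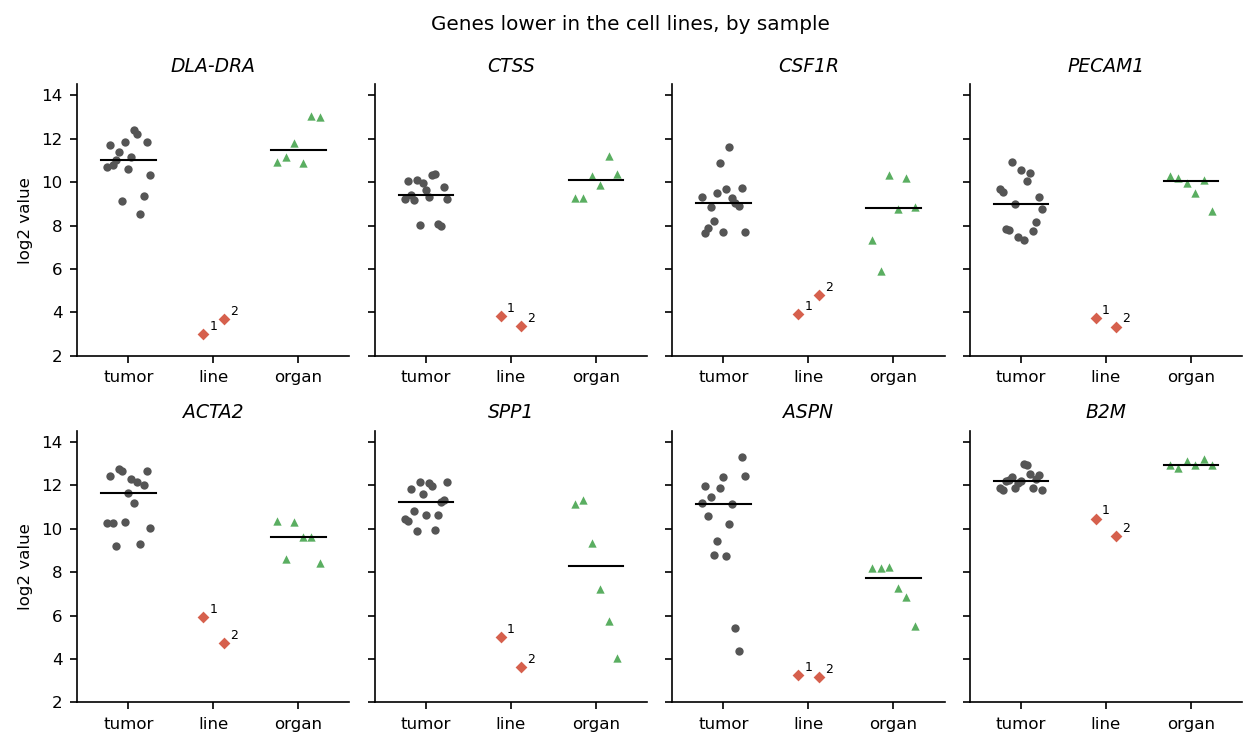
Log2 values of 8 genes lower in the cell lines, 1 point per array, for the 15 tumors (circles, line at the median), cell lines 1 and 2 (diamonds, numbered) and the 6 normal organ arrays (triangles, line at the median). Both lines lie below every tumor for all 8 genes, by more than 4 log2 units for DLA-DRA and CTSS and by just over 1 unit at the least for ASPN and B2M, and ASPN has the widest spread among the tumors.

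Genes of fibroblasts and loose stroma formed a list of their own outside the 10 marker lists, since osteosarcoma cells can express them too. Its lower members therefore fell into the other classes, FBLN1 among the genes that tracked a score and ASPN, DPT and SERPINF1 among the rest. In this list 4 of 20 measured members were lower (20%, against 2.92% of all genes), 0 were higher and the median difference was -1.62. With arrays of full 5′ signal alone 1 of the 20 was lower and 1 was higher, and 2 and 0 were lower without cell line 1 and 2. ASPN, asporin, a small proteoglycan of the matrix, read 3.27 in cell line 1 and 3.15 in cell line 2, against 4.35 to 13.31 in the tumors (median 11.12) (difference -7.01 ± 1.62, adjusted p = 0.00659). The lines lay under all tumors, but the tumors spanned almost 9 log2 units, and without cell line 1 or 2 the adjusted p was 0.0739 and 0.0798. DPT, dermatopontin, read 7.09 in cell line 1 and 4.23 in cell line 2, against 8.49 to 12.22 in the tumors (median 10.86) (difference -5.04 ± 0.88, adjusted p = 0.000839; adjusted p = 0.0697 without cell line 2). SERPINF1, pigment epithelium-derived factor, read 6.64 in cell line 1 and 3.92 in cell line 2, against 7.82 to 11.62 in the tumors (median 10.22) (difference -4.61 ± 0.80, adjusted p = 0.000788; adjusted p = 0.0698 without cell line 2). In both genes cell line 2 was lower than cell line 1 by more than 2 log2 units. FBLN1, the matrix protein fibulin-1, was lower at 5.83 in cell line 1 and 6.27 in cell line 2 (difference -3.74 ± 0.72, adjusted p = 0.0018; adjusted p = 0.0444 without cell line 1 and 0.0249 without cell line 2). The other probe sets of ASPN (-3.03), FBLN1 (-2.57) and SERPINF1 (-0.12) did not pass.

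The unlisted lower genes that tracked a cell type score held further genes known from leukocytes and vessels. SELENOP, a selenium carrier in plasma, read 5.22 in cell line 1 and 3.29 in cell line 2, against 8.70 to 11.73 in the tumors (median 10.18) (difference -5.87 ± 0.65, adjusted p = 9.53e-06), and it kept its call without either line. SRGN, serglycin, the core proteoglycan of leukocyte granules, read 3.55 in cell line 1 and 4.75 in cell line 2, against 7.53 to 11.64 in the tumors (median 9.61) (difference -5.30 ± 0.89, adjusted p = 0.000571; adjusted p = 0.0301 without cell line 1). RAC2, a GTPase of blood cells, read 4.27 in cell line 1 and 4.25 in cell line 2, against 6.41 to 11.12 in the tumors (median 8.52) (difference -4.32 ± 0.78, adjusted p = 0.00108; adjusted p = 0.0249 and 0.0254 without cell line 1 and 2). None of these 3 genes overlapped between lines and tumors, but a second probe set of SELENOP did not pass, at -2.02. Over the tumors, RAC2 followed the osteoclast score best (r = 0.89), SRGN the macrophage score (r = 0.68) and SELENOP the endothelial score (r = 0.80). For TFPI, given next by its brightest probe set, neither of the other 2 passed, at -1.03 and -0.03. TFPI, the tissue factor pathway inhibitor (difference -4.08 ± 0.72, adjusted p = 0.000948), the chemokine CCL23 (difference -3.44 ± 0.80, adjusted p = 0.00688) and BPI, which binds bacterial endotoxin (difference -3.62 ± 0.74, adjusted p = 0.00291), were in the same class, with adjusted p-values of 0.0315, 0.0913 and 0.0324 without cell line 1 and 0.0156, 0.0696 and 0.0635 without cell line 2.

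Complement genes were also among the lower ones, at a share above the 2.92% of all genes. Of 19 measured complement and coagulation genes 4 were lower (21.1%), 0 were higher and the median difference was -1.30, with 0 called without cell line 1, 1 without cell line 2 and 3 on arrays of full 5′ signal. C1S and C1R, the proteases of the first complement component, had differences of -3.24 ± 0.62, adjusted p = 0.00186 and -3.01 ± 0.50, adjusted p = 0.000485, and SERPING1, their inhibitor, had a difference of -3.27 ± 0.57, adjusted p = 0.000845. The other 2 probe sets of C1S did not pass, at -0.83 and -2.51. SERPING1 read 6.17 in cell line 1 and 6.63 in cell line 2, against 8.30 to 11.21 in the tumors (median 9.90), without overlap. Without cell line 1 the adjusted p rose to 0.0549 for C1S, 0.0474 for C1R and 0.0304 for SERPING1, and without cell line 2 to 0.0195 for C1S and 0.0137 for SERPING1. B2M, the light chain of MHC class I that nearly all cells express, read 10.47 in cell line 1 and 9.67 in cell line 2, against 11.78 to 12.997 in the tumors (median 12.22) (difference -2.17 ± 0.27, adjusted p = 2.79e-05). Of its other 2 probe sets 1 passed (-2.21) and 1 did not (-1.83, adjusted p = 0.155), and the call held without either line. B2M was 1 of 2 lower genes among 14 interferon response genes, whose median difference was -0.53.

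The third class, genes outside the lists that tracked no score, is where changes in the tumor cells themselves could fall, along with genes of cell types that no list covers. OGT, the enzyme that adds N-acetylglucosamine to proteins, read 6.71 in cell line 1 and 6.04 in cell line 2, against 9.40 to 11.01 in the tumors (median 10.32) (difference -3.89 ± 0.44, adjusted p = 1.14e-05). Its other 3 probe sets had differences of -1.86, -1.61 and -1.38, of which the first passed. RGCC, a regulator of cell cycle kinases, read 5.33 in cell line 1 and 5.16 in cell line 2, against 8.17 to 10.46 in the tumors (median 8.90) (difference -3.81 ± 0.54, adjusted p = 0.000113). ADGRL2, the adhesion receptor latrophilin-2, read 3.96 in cell line 1 and 3.41 in cell line 2, against 5.37 to 8.51 in the tumors (median 7.64) (difference -3.85 ± 0.54, adjusted p = 0.000113). Lines and tumors did not overlap for these 3 genes, and all 3 kept their call without either line. BMP6, a bone morphogenetic protein (difference -3.48 ± 0.65, adjusted p = 0.00148; adjusted p = 0.0128 and 0.0578 without cell line 1 and 2), and PDPN, podoplanin, a glycoprotein of osteocytes and lymphatic vessels (difference -3.42 ± 0.75, adjusted p = 0.0048; adjusted p = 0.0439 and 0.0883), were lower too. SMPDL3A, a phosphodiesterase, read 3.51 in cell line 1 and 6.79 in cell line 2, against 8.08 to 12.51 in the tumors (median 10.42) (difference -5.09 ± 0.85, adjusted p = 0.000534; adjusted p = 0.0612 without cell line 1), and its r of 0.60 with the macrophage score was just under the border of the second class.

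Among bone matrix genes, COL1A1 read high in both lines while osteopontin was far below the tumors, and the probe sets of COL1A2 differed among themselves. Of 15 measured bone matrix and osteoblast genes 1 was lower (6.67%, against 2.92% of all genes) and 0 were higher, and the median difference was -0.84. SPP1, osteopontin, a phosphoprotein that anchors cells to bone mineral and is also made by macrophages and osteoclasts, read 5.02 in cell line 1 and 3.63 in cell line 2, against 9.91 to 12.15 in the tumors (median 11.23) (difference -6.81 ± 0.63, adjusted p = 1.13e-06). Each line lay at least 4 log2 units below the lowest tumor, the call held without either line, and over the tumors SPP1 followed the osteoclast score with r = 0.80. COL1A1, a chain of type I collagen, read 13.18 in cell line 1 and 12.39 in cell line 2, against 9.58 to 13.95 in the tumors (median 13.49) and did not pass (difference -0.38 ± 0.74, adjusted p = 0.776). Both lines lay within the range of the tumors. COL1A2, its partner chain, read 12.93 in cell line 1 and 11.03 in cell line 2, against 12.01 to 13.82 in the tumors (median 13.61) (difference -1.50 ± 0.43, adjusted p = 0.0245), with cell line 2 below all tumors and cell line 1 within their range. A dimmer COL1A2 probe set passed, at 7.53 in cell line 1 and 5.01 in cell line 2, against 6.48 to 11.98 in the tumors (median 10.68) (difference -4.19, adjusted p = 0.00394), with cell line 1 again within their range. The other 3 probe sets of COL1A2 had differences of -1.09 to -0.11 and did not pass. SPARC, osteonectin, read 12.02 in cell line 1 and 11.76 in cell line 2, against 11.71 to 13.23 in the tumors (median 12.83) (difference -0.90 ± 0.45, adjusted p = 0.192), within the range of the tumors in both lines.

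The other genes that define osteoblasts were low in both groups or variable among the tumors. ALPL, the alkaline phosphatase of bone, read 3.95 in cell line 1 and 3.91 in cell line 2, against 3.98 to 8.79 in the tumors (median 5.04) (difference -1.74 ± 0.92, adjusted p = 0.217). BGLAP, osteocalcin, read 4.84 in cell line 1 and 4.59 in cell line 2, against 4.58 to 6.40 in the tumors (median 5.66) (difference -0.84 ± 0.40, adjusted p = 0.166). A dimmer BGLAP probe set varied more among the tumors, from 3.79 to 10.35 (median 4.56). It read 4.71 in cell line 1 and 4.92 in cell line 2 and did not pass in limma's test (difference -1.21, adjusted p = 0.626). RUNX2, the transcription factor of the osteoblast lineage, read 4.67 in cell line 1 and 4.48 in cell line 2, against 4.49 to 5.76 in the tumors (median 4.66) (difference -0.22 ± 0.24, adjusted p = 0.581), near the low end of the array's scale in both groups. PTH1R, the parathyroid hormone receptor, read 4.65 in cell line 1 and 4.59 in cell line 2, against 4.74 to 10.84 in the tumors (median 8.74) (difference -3.49 ± 1.24, adjusted p = 0.0635), so that both lines were below every tumor, although the test did not pass. BMP2 read 5.35 in cell line 1 and 5.44 in cell line 2, below the lowest tumor at 5.84 (difference -2.16 ± 0.66, adjusted p = 0.0321). Other markers of osteoblasts, such as SP7 and IBSP, had no probe set with their symbol.

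Of the mesenchymal markers none passed. VIM, vimentin, the intermediate filament of mesenchymal cells, read 13.97 in cell line 1 and 13.80 in cell line 2, against 13.44 to 13.87 in the tumors (median 13.69) (difference 0.23 ± 0.17, adjusted p = 0.406). FN1, fibronectin, read 11.39 in cell line 1 and 10.60 in cell line 2, against 11.37 to 12.97 in the tumors (median 12.47) (difference -1.39 ± 0.38, adjusted p = 0.0193), with cell line 2 below all tumors. CDH2, N-cadherin, was low in both groups (difference -0.38 ± 0.18, adjusted p = 0.16). For the lists that follow, 2.92% of all genes were called lower. Of 21 collagen genes 1 was lower, COL4A1, a basement membrane chain, at 9.48 in cell line 1 and 8.39 in cell line 2 (difference -2.35 ± 0.51, adjusted p = 0.00435; adjusted p = 0.0182 and 0.138 without cell line 1 and 2, and none of 3 other probe sets past the threshold in limma's test), with a list median of -0.33. None of 20 matrix glycoproteins and proteoglycans was called in limma's test (at an unadjusted p under 0.05, 6 were lower and 2 higher), and the list median was -0.44. Among 12 genes that process and cross-link collagen 1 was lower, PCOLCE, which speeds the removal of the procollagen end (difference -3 ± 0.55, adjusted p = 0.00124; adjusted p = 0.0847 without cell line 2), and the median was -0.01. TIMP1, an inhibitor of matrix metalloproteinases, read 10.56 in cell line 1 and 9.94 in cell line 2, against 11.22 to 13.14 in the tumors (median 11.98) (difference -1.83 ± 0.41, adjusted p = 0.00574; adjusted p = 0.0325 and 0.13 without cell line 1 and 2).

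**Figure D3:**
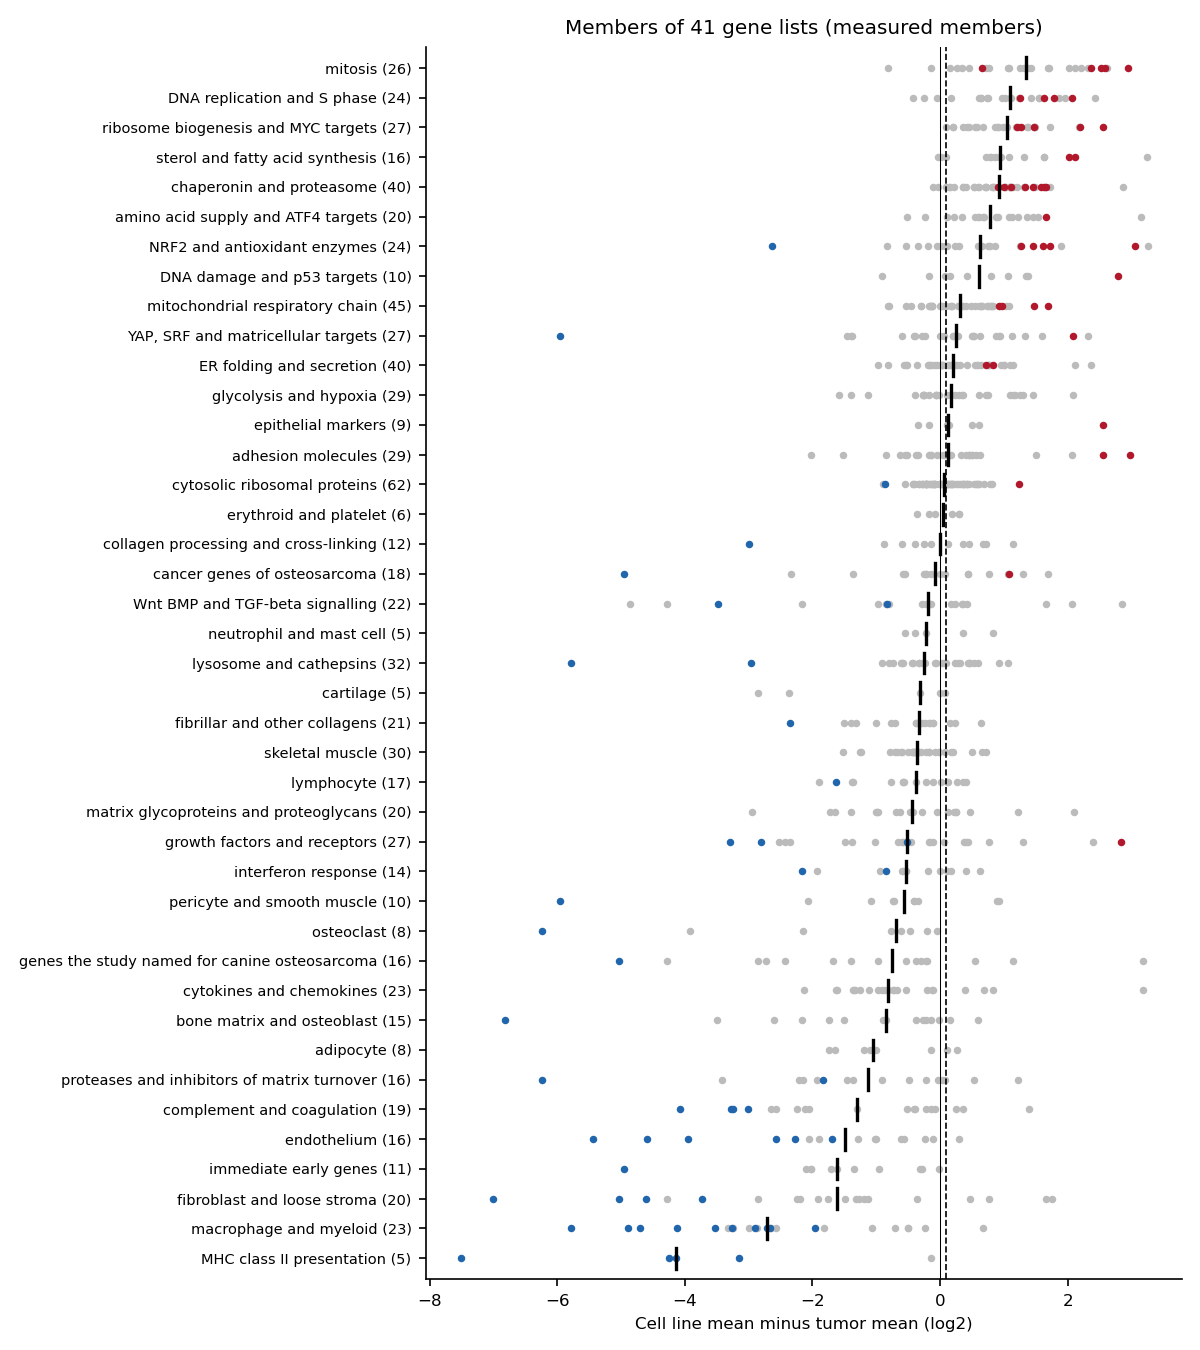
Difference between the mean of the 2 cell lines and the mean of the 15 tumors (log2, x axis) for each measured member of 41 gene lists (y axis, number of measured members in parentheses), with called genes in red or blue, others in grey, the list's median as a black bar and the median of all genes as a dashed line. MHC class II and macrophage genes lie furthest to the left with medians of -4.13 and -2.70, and mitosis, DNA replication and ribosome biogenesis lie furthest to the right with medians of 1.35, 1.10 and 1.05.

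Genes of the dividing cell had the highest median of the 41 lists. Of 26 measured mitosis genes 5 were higher (19.2%, against 5.84% of all genes) and 0 were lower. A positive difference was found for 24 of them, against 3734 of all 6540 genes, and the list median was 1.35. The mean level of the list was 8.09 and 8.33 in the lines and 5.55 to 7.90 in the tumors, so that both lines lay above all tumors. AURKA, the mitotic kinase Aurora A, read 7.70 in cell line 1 and 7.60 in cell line 2, against 3.77 to 6.65 in the tumors (median 4.39) (difference 2.95 ± 0.55, adjusted p = 0.00138). MYBL2, a transcription factor of cell cycle genes, read 9.44 in cell line 1 and 9.97 in cell line 2, against 5.86 to 8.59 in the tumors (median 7.35) (difference 2.52 ± 0.49, adjusted p = 0.0019). TPX2, which activates Aurora A on the spindle, read 6.85 in cell line 1 and 6.45 in cell line 2, against 3.52 to 5.95 in the tumors (median 4.08) (difference 2.37 ± 0.47, adjusted p = 0.00223). The lines were above every tumor for these 3 genes. Without cell line 1, and likewise without cell line 2, 0 of the 26 were called by limma, with adjusted p-values of 0.0318 and 0.0263 for AURKA, 0.0197 and 0.0559 for MYBL2 and 0.0571 and 0.0256 for TPX2 without cell line 1 and 2. On arrays of full 5′ signal 1 of the 26 was called. NEK2, a kinase of centrosome separation, was also called (difference 2.58 ± 0.62, adjusted p = 0.00858), but lost its call when any 1 of 11 tumors was left out (highest adjusted p = 0.0117) and without cell line 1 (0.0976) or 2 (0.0848).

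Of 24 genes of DNA replication 4 were higher (16.7%, against 5.84% of all genes) and 0 were lower. A positive difference was found for 21 of them, against 3734 of all 6540 genes, and the list median was 1.10. The number called was 1 without cell line 1, 1 without cell line 2 and 1 on arrays of full 5′ signal. GMNN, geminin, which blocks a second round of origin licensing, read 8.90 in cell line 1 and 9.75 in cell line 2, against 6.29 to 8.27 in the tumors (median 7.34) (difference 2.06 ± 0.45, adjusted p = 0.00477). CDT1, the licensing factor that geminin binds, read 7.29 in cell line 1 and 6.94 in cell line 2, against 5 to 6.78 in the tumors (median 5.76) (difference 1.26 ± 0.28, adjusted p = 0.00471). POLA1, the catalytic subunit of the polymerase that starts DNA strands, read 4.81 in cell line 1 and 6.83 in cell line 2 against at most 4.97 in the tumors (difference 1.62 ± 0.33, adjusted p = 0.00296), so that the difference came from cell line 2, and without that line its adjusted p was 0.295. The adjusted p of GMNN was 0.0232 and 0.133 and that of CDT1 0.107 and 0.0331 without cell line 1 and 2. SMC6, part of a complex that repairs DNA breaks, had the largest difference of the higher genes and read 8.18 in cell line 1 and 8.46 in cell line 2, against 4.09 to 6.48 in the tumors (median 4.61) (difference 3.39 ± 0.54, adjusted p = 0.000344; adjusted p = 0.0153 without cell line 2). DSCC1, which loads the replication clamp during cohesion of sister chromatids, read 8.78 in cell line 1 and 8.15 in cell line 2, against 3.26 to 6.92 in the tumors (median 5.46) (difference 3.14 ± 0.62, adjusted p = 0.00214; adjusted p = 0.0592 and 0.0225 without cell line 1 and 2). Both lines lay above all tumors for SMC6 and DSCC1.

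Genes that build ribosomes and that fold or degrade proteins followed. Of 27 ribosome biogenesis genes 5 were higher (18.5%, against 5.84% of all genes) and 0 were lower. All 27 had a positive difference, against 3734 of all 6540 genes, and the list median was 1.05. The 17 osteosarcoma samples alone gave 1 call, and leaving out cell line 1 and 2 gave 2 and 1. NOP14, a factor of the small subunit, read 9.45 in cell line 1 and 9.19 in cell line 2, against 5.78 to 7.87 in the tumors (median 6.72) (difference 2.55 ± 0.36, adjusted p = 0.000114) and kept its call without either line, while its other probe set stood at 0.14. DDX21, a nucleolar RNA helicase, read 8.50 in cell line 1 and 8.33 in cell line 2, against 4.61 to 7.73 in the tumors (median 6.22) (difference 2.19 ± 0.50, adjusted p = 0.00639; adjusted p = 0.0889 and 0.0647 without cell line 1 and 2). DDX27, another nucleolar helicase outside the list, read 8.60 in cell line 1 and 8.57 in cell line 2, against 5.19 to 6.75 in the tumors (median 5.86) (difference 2.68 ± 0.34, adjusted p = 3.57e-05), with a second probe set at 2.25 and a call that held without either line. In contrast, the 62 measured ribosomal proteins had a median difference of 0.06, with 1 higher and 1 lower.

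Of 40 chaperonin and proteasome genes 8 were higher (20.0%, against 5.84% of all genes) and 0 were lower. A positive difference was found for 38 of them, against 3734 of all 6540 genes, and the list median was 0.92. Without cell line 1 and 2 the number called was 3 and 1. The mean level of the list was 9.93 and 9.92 in the lines and 8.35 to 9.42 in the tumors. CCT8, a subunit of the cytosolic chaperonin, read 11.84 in cell line 1 and 11.88 in cell line 2, against 9.26 to 11.10 in the tumors (median 9.97) (difference 1.66 ± 0.33, adjusted p = 0.00239; adjusted p = 0.0381 and 0.0433 without cell line 1 and 2). PSMC6, an ATPase of the proteasome's cap, read 5.63 in cell line 1 and 5.66 in cell line 2, against 3.47 to 4.61 in the tumors (median 3.99) (difference 1.62 ± 0.24, adjusted p = 0.000208) and kept its call without either line. The other 2 probe sets of CCT8 did not pass, at 0.16 and 2.90. For these 2 genes the lowest line was above the highest tumor.

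Of 24 genes listed for antioxidant enzymes and the factor NRF2, 5 were higher (20.8%, against 5.84% of all genes), 1 was lower and the median was 0.63. KEAP1, described below, was 1 of the 5 and is not an antioxidant enzyme. Without cell line 1 and 2 the number called higher was 2 and 3. GSR, glutathione reductase, read 7.71 in cell line 1 and 8.81 in cell line 2, against 4.40 to 5.92 in the tumors (median 5.35) (difference 3.06 ± 0.37, adjusted p = 2.44e-05). Both lines lay above every tumor by more than 1.5 log2 units, and the call held without either line, although a second, separate probe set of GSR had a difference of 0.52 only. TXN, thioredoxin, read 13.09 in cell line 1 and 12.55 in cell line 2, against 10.96 to 11.83 in the tumors (median 11.33) (difference 1.46 ± 0.22, adjusted p = 0.000204; adjusted p = 0.0218 without cell line 1). TXNRD1, its reductase, had a difference of 1.62 ± 0.28, adjusted p = 0.000664, but this call did not hold with either line left out. A second probe set of TXNRD1 stood at 2.57 without passing in limma's test (adjusted p = 0.0132). KEAP1, the adaptor that marks the factor NRF2 for degradation, was higher as well, at 8.98 in cell line 1 and 8.75 in cell line 2 against at most 7.53 in the tumors (difference 1.72 ± 0.22, adjusted p = 3.57e-05), and its call held without either line. PTGR1, prostaglandin reductase 1, which clears reactive aldehydes and ketones, lay outside the list and read 11.66 in cell line 1 and 11.84 in cell line 2, against 7.91 to 9.76 in the tumors (median 8.97) (difference 2.89 ± 0.34, adjusted p = 2.19e-05), again with a call that held without either line. CAT, catalase, moved the other way (difference -2.64 ± 0.46, adjusted p = 0.000778; adjusted p = 0.0102 and 0.0337 without cell line 1 and 2 and 0.0154 on arrays of full 5′ signal) and followed the endothelial score over the tumors (r = 0.73). None of its 4 other probe sets passed in limma's test, with differences of -1.07 to 0.01.

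Few genes were called in the lists of lipid and amino acid supply, although most of their members had a positive difference. For comparison, 5.84% of all genes were called higher at an adjusted p under 0.01, and 3734 of 6540 had a positive difference. Neither is the share of all genes at an unadjusted p under 0.05. At that unadjusted border, 11 of 16 sterol and fatty acid genes were higher and 0 lower. Of 20 amino acid and ATF4 target genes 13 were higher and 0 lower at that border, and 18 had a positive difference. At an adjusted p under 0.05, 7 of these 20 and 6 of the 16 sterol and fatty acid genes were higher, against 821 of all 6540 genes. Of 16 genes of sterol and fatty acid synthesis 2 were higher (12.5%; 1 without cell line 1 and 0 without cell line 2), 15 had a positive difference and the median was 0.95. FDPS, farnesyl diphosphate synthase, read 9.22 in cell line 1 and 10.06 in cell line 2, against 6.65 to 8.13 in the tumors (median 7.48) (difference 2.12 ± 0.44, adjusted p = 0.00311; adjusted p = 0.0167 and 0.104 without cell line 1 and 2). MVD, mevalonate diphosphate decarboxylase, which acts before it, had a difference of 2.02 ± 0.34, adjusted p = 0.000571 (adjusted p = 0.0295 without cell line 2), but its other probe set was at -0.18. Among 20 amino acid and ATF4 target genes 1 was higher (5%, no more than the share over all genes), AARS1, the tRNA ligase of alanine (difference 1.65 ± 0.32, adjusted p = 0.00214; adjusted p = 0.0453 and 0.0313 without cell line 1 and 2), and the median was 0.78. MTHFD1L, the folate enzyme that makes formate in mitochondria, read 9.41 in cell line 1 and 9.10 in cell line 2, against 5.52 to 7.63 in the tumors (median 6.55) (difference 2.81 ± 0.50, adjusted p = 0.000975; adjusted p = 0.0308 and 0.0169). TIGAR, a p53 target that lowers glycolytic flux, read 10.39 in cell line 1 and 9.31 in cell line 2, against 6.001 to 7.96 in the tumors (median 7.14) (difference 2.79 ± 0.40, adjusted p = 0.000128), with a second probe set at 3.13, and had an adjusted p of 0.0163 without cell line 1. None of 29 glycolysis and hypoxia genes was called in limma's test (at an unadjusted p under 0.05, 6 were higher), with a median of 0.18. Of 45 respiratory chain genes 4 were higher (8.89%, against 5.84% of all genes), with a median of 0.31. These 4, NDUFA5, NDUFA10, NDUFB7 and NDUFS6, all lost their call without cell line 1, without cell line 2 and among the 17 osteosarcoma samples alone, and each lost it when any 1 of 7 to 11 tumors was left out (adjusted p of at most 0.0126).

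CDH6, NRG1 and EPCAM read under 5 in every tumor and were higher in the lines. CDH6, a cadherin of the developing kidney, read 6.76 in cell line 1 and 7.07 in cell line 2, against 3.55 to 4.71 in the tumors (median 3.89) (difference 2.97 ± 0.24, adjusted p = 1.86e-07), and a second probe set stood at 1.70. NRG1, a ligand of the ERBB receptors, read 7.07 in cell line 1 and 6.84 in cell line 2, against 3.82 to 4.63 in the tumors (median 4.10) (difference 2.83 ± 0.25, adjusted p = 5.17e-07). Both lines lay more than 2 log2 units above the highest tumor for both genes, and their calls held without either line. Kidney and liver read 6.36 and 5.70 for CDH6 and 5.71 and 5.47 for NRG1. EPCAM, an adhesion protein of epithelia, read 7.03 in cell line 1 and 5.03 in cell line 2, against 3.03 to 3.99 in the tumors (median 3.43) (difference 2.55 ± 0.31, adjusted p = 2.72e-05), against 10.997 in kidney and 8.91 in liver. Cell line 1 was higher than cell line 2 by 2 log2 units, and the call held without either line. CDH1, E-cadherin, did not pass, at 4.16 in cell line 1 and 4.15 in cell line 2 (difference -0.18 ± 0.14, adjusted p = 0.41), and KRT8 and KRT18, keratins of simple epithelia, had differences of 0.11 ± 0.24, adjusted p = 0.796 and 0.61 ± 0.34, adjusted p = 0.249. EPCAM was the only called gene of 9 epithelial markers (11.1%), in limma's test at 0.01. CDH6 and EPCAM were the called genes of 29 adhesion molecules (6.90%). Over all genes 5.84% were called higher, so these list shares were near the background or rested on 1 gene. SLC1A1, a glutamate transporter, read 7.03 in cell line 1 and 6.77 in cell line 2, against 3.48 to 6.32 in the tumors (median 3.92) (difference 2.67 ± 0.59, adjusted p = 0.00505; adjusted p = 0.0801 and 0.0535 without cell line 1 and 2), and ATP1B1, the beta subunit of the sodium pump, read 10.31 in cell line 1 and 9.07 in cell line 2, against 5.49 to 8.18 in the tumors (median 7.30) (difference 2.69 ± 0.57, adjusted p = 0.00363; adjusted p = 0.127 and 0.0157).

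**Figure D4:**
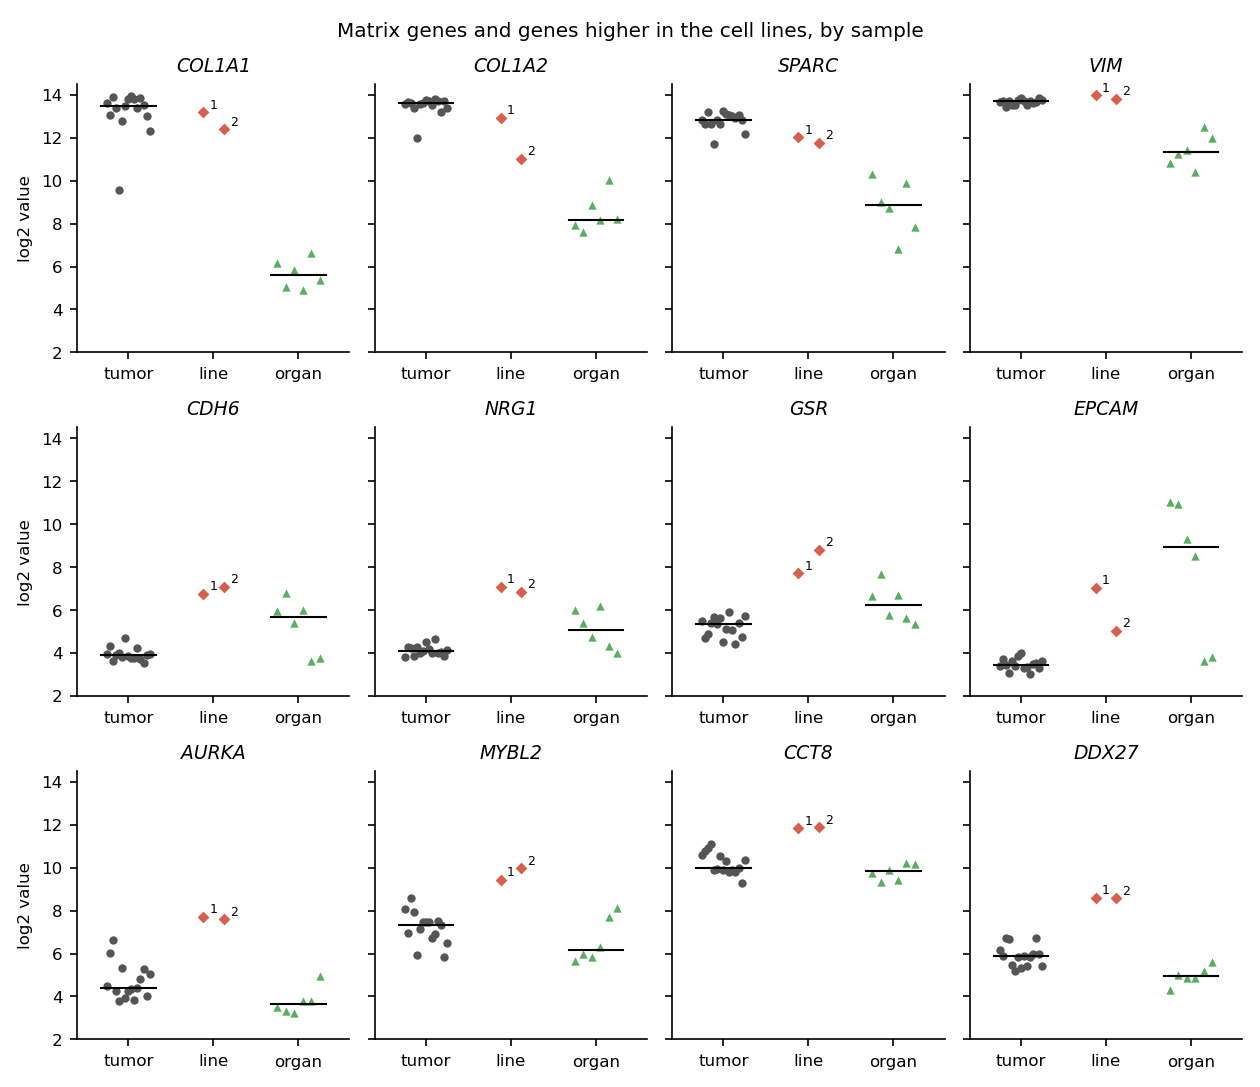
Log2 values of 12 genes, 1 point per array, for the 15 tumors (circles, line at the median), cell lines 1 and 2 (diamonds, numbered) and the 6 normal organ arrays (triangles, line at the median). The matrix genes COL1A1, COL1A2 and SPARC and the mesenchymal gene VIM stay high in the lines and did not pass the test by their brightest probe sets, which are the ones drawn, whereas the lines lie above all tumors for the other 8 genes.

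Few signalling genes were called in the lists below, 0 to 3 genes in each direction. The higher shares were up to 5.56%, against 5.84% of all genes. The lower shares were up to 11.1%, against 2.92% of all genes. Of 27 growth factors and receptors NRG1 was higher and 3 were lower, with a median of -0.51. PDGFRL, a receptor-like protein, read 6.14 in cell line 1 and 8.12 in cell line 2, against 8.60 to 12.33 in the tumors (median 10.24) (difference -3.29 ± 0.77, adjusted p = 0.00696; adjusted p = 0.207 and 0.0181 without cell line 1 and 2), and PDGFD, a ligand of the PDGF receptors, had a difference of -2.81 ± 0.63, adjusted p = 0.00563 (adjusted p = 0.0783 and 0.0621). Of 5 other probe sets of PDGFRL 1 passed in the same direction, at -1.78. All 11 immediate early genes had a negative difference, with a median of -1.62. Of all 6540 genes, 2806 had a negative difference. At an unadjusted p under 0.05 in limma's test, 7 of the 11 were lower and 0 higher. At an adjusted p under 0.05, 4 of the 11 were lower, against 403 of all 6540 genes. Only FOS, the AP-1 subunit, was called in limma's test at 0.01. It read 4.40 in cell line 1 and 5.14 in cell line 2, against 7.98 to 12.33 in the tumors (median 9.26) (difference -4.95 ± 0.89, adjusted p = 0.00106; adjusted p = 0.0354 and 0.016 without cell line 1 and 2), without overlap. Among 22 genes of Wnt, BMP and TGF-beta signalling BMP6 and CTNNB1, the Wnt effector beta-catenin, were lower, and CTNNB1 read 10.73 in cell line 1 and 10.91 in cell line 2, against 11.07 to 11.97 in the tumors (median 11.65) (difference -0.83 ± 0.18, adjusted p = 0.00457; adjusted p = 0.0956 and 0.037 without cell line 1 and 2, and 0.01 with arrays centred on their medians). Neither of the other 2 probe sets of CTNNB1 passed in limma's test (-1.66, adjusted p = 0.0714, and -0.13, adjusted p = 0.945). In the latter both lines lay above the tumor median. Of 23 cytokines and chemokines none was called in limma's test (at an unadjusted p under 0.05, 2 were lower and 1 higher) and 19 had a negative difference, with a median of -0.82. Among 18 cancer genes of osteosarcoma BCL2L1, which blocks apoptosis, was higher at 8.15 in cell line 1 and 6.95 in cell line 2 against at most 6.87 in the tumors (difference 1.08 ± 0.23, adjusted p = 0.00385; adjusted p = 0.3 without cell line 1), and FOS was lower.

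Of the genes that the study named for canine osteosarcoma, a list it chose on these samples, 16 were measured. DPT alone was called, as lower (6.25% of the 16, against 2.92% of all genes), and the median over the 16 was -0.75. CXCL8, interleukin 8, read 9.53 in cell line 1 and 12.56 in cell line 2, against 4.13 to 12.76 in the tumors (median 8.19) and did not pass (difference 3.19 ± 1.75, adjusted p = 0.235): both lines were above the tumor median and within the wide range of the tumors. SLC1A3, a glutamate transporter, read 3.90 in cell line 1 and 5.81 in cell line 2 against a tumor median of 7.80 (difference -2.73 ± 0.96, adjusted p = 0.0619). SFRP4, a secreted Wnt antagonist, read 4.68 in cell line 1 and 4.31 in cell line 2, against 4.60 to 12.10 in the tumors (median 9.67) (difference -4.27 ± 1.43, adjusted p = 0.0507). MFAP5, a microfibril protein, had a difference of -2.85 ± 1.42, adjusted p = 0.189, PTN, pleiotrophin, of -2.42 ± 1.53, adjusted p = 0.307, and CASK, a membrane scaffold, of -1.67 ± 0.59, adjusted p = 0.0638. LOXL2, a lysyl oxidase that cross-links collagen, read 11.38 in cell line 1 and 10.99 in cell line 2, inside the range of the tumors (difference 1.14 ± 0.66, adjusted p = 0.258). COL1A1 and FN1 are given above. LAMA4, a laminin chain, had a difference of -0.97 ± 0.59, adjusted p = 0.286, and MAP1B, a microtubule protein, one of 0.55 ± 0.58, adjusted p = 0.57. TFPI2, RBP4, LGALS3 and PRKDC lay between these, from -0.54 for RBP4 to -0.21 for PRKDC.

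The lines differed from each other at many genes, which could not be tested with 1 array each. Of 6540 genes 718 were over 2-fold apart, 464 higher in cell line 1 and 254 higher in cell line 2, and 34 were over 8-fold apart. SAA1, the acute phase protein serum amyloid A, was the widest difference, at 4.22 in cell line 1 and 11.29 in cell line 2, with the tumors spread over the same range (4.13 to 12.86). The chemokine CCL2 (7.16 and 10.95) and NFKBIZ, a nuclear regulator of inflammatory genes (3.79 and 7.45), were also higher in cell line 2. All 3 are known to respond to inflammatory signals. HSPB1, a small heat shock protein, read 5.43 in cell line 1 and 9.52 in cell line 2 against at least 9.20 in the tumors. It was called lower (difference -3.002 ± 0.63, adjusted p = 0.0036), but the difference came from cell line 1, and without that line the adjusted p was 0.366. GAP43, a protein of growing axons (8.99 and 4.75), IL13RA2, a decoy receptor of interleukin 13 (7.54 and 3.44), and CXADR, an adhesion protein (8.49 and 4.68), were higher in cell line 1 than in cell line 2 and than in all tumors.

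Some genes were low in 1 line only. MTAP, an enzyme of methionine salvage, read 4.58 in cell line 1 and 8.48 in cell line 2, against 5.60 to 8.62 in the tumors (median 7.11), so that cell line 1 alone was below all tumors. RB1, the retinoblastoma tumor suppressor, read 8.05 in cell line 1 and 4.50 in cell line 2, against 6.72 to 9.98 in the tumors (median 8.58), so that cell line 2 alone was below all tumors. The other probe sets of RB1 did not separate the lines in this way. In 1 of them both lines, at 6.87 in cell line 1 and 6.98 in cell line 2, were below the lowest tumor at 7.11. The other read low throughout, at 3.57 in cell line 1 and 3.11 in cell line 2, with the tumors at 3.19 to 4.44. DYNLT3, a dynein light chain, read 9.27 in cell line 1 and 3.72 in cell line 2, against 7.48 to 10.07 in the tumors (median 8.71), and TMEM47, a membrane protein, read 8.70 in cell line 1 and 3.83 in cell line 2, against 7.72 to 10.20 in the tumors (median 9.60). TXNIP, which binds thioredoxin, read 8.95 in cell line 1 and 5.26 in cell line 2, against 7.99 to 11.10 in the tumors (median 9.42). In these 3 genes cell line 2 was below every tumor while cell line 1 lay within their range. Cell line 2 was within the range of the tumors in a second probe set of TXNIP, at 4.50 with the lowest tumor at 4.30, and in 1 of the other 2 of TMEM47, at 3.79 with the lowest tumor at 3.67, whereas it was below all tumors in the last, at 3.56 with the lowest tumor at 3.92.

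**Figure D5:**
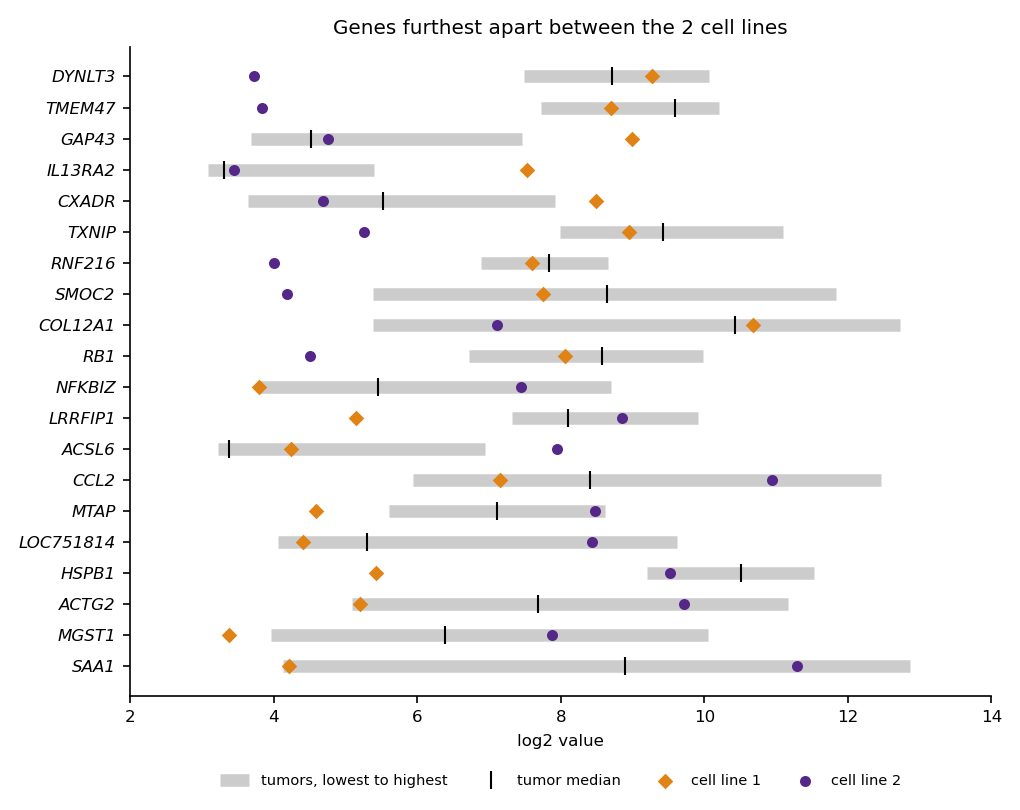
The 20 genes furthest apart between cell line 1 (diamonds) and cell line 2 (circles) by log2 value, with the range of the 15 tumors as grey bars and their median as a tick. Cell line 2 lies below all tumors for DYNLT3, TMEM47, TXNIP, RNF216, SMOC2 and RB1, and cell line 1 lies below all tumors for MTAP, HSPB1, LRRFIP1 and MGST1.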

How the data were processed

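RNA from 15 tumors, 2 cell lines and 6 organ samples was hybridized by the authors to Affymetrix canine genome arrays at a single facility, batched as a group. The authors summarized the probes by RMA, and the deposited log2 values (2.52 to 14.2, 23913 probe sets) were used as given. RMA equalizes the distribution of all arrays, so a change in total RNA per cell cannot be seen. Arrays have no read depth; their number sets the precision. After removal of 77 control probe sets, 23836 were tested. The platform annotation gave 1 symbol for 10549, several for 138 and none for 13149. The brightest probe set stood for each of 6540 genes.

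Groups were taken from the labels. The cell lines were contrasted with the tumors in a limma 3.58.1 fit (R 4.3.3) of all 23 samples in 5 groups (two-sided, Benjamini-Hochberg over all probe sets, threshold 0.01), which was tested on simulated data. Its p-values reflect the spread among these arrays, which may be partly technical. Technical measures were compared by exact permutation (scipy). Alternatives were another threshold, a minimum fold, other samples, the 5′ index as a covariate, full 5′ arrays alone, centred arrays, a filter on dim probe sets, trend and robust moderation, other gene summaries, class borders, and leaving out each array.

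The comparison and the 41 gene lists were chosen with earlier results of these data known. Genes were named by rule: the 15 largest calls in each direction, the 10 largest in each class of lower genes, up to 4 called members of each list in each direction, the genes that the study named, the 10 genes furthest apart between the lines in each direction, and the defining markers and osteoblast genes. Not every gene that the rule takes is printed. A gene near another was placed by RefSeq's table, without coordinates.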

Additional observations from a re-analysis of the deposited data

Results flagged for a closer look

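The 4 hybridization controls were not used in any comparison of genes and stood apart in the cell lines: both lines read above all 15 tumors and all 6 normal organ arrays for each of them. The difference between the mean of the lines and the mean of the tumors on the log2 scale was 2.68 for BioB, 1.92 for BioC, 1.22 for BioD and 1.11 for Cre. Each had an exact two-sided permutation p of 0.0147, the smallest possible with 2 lines and 15 tumors, and 0.0184 after adjustment over the 5 measures tested, the fifth being the 5′ index (p = 0.515, exact permutation). What set these controls apart was not tested.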

How the results depend on the processing

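Every one of the 99 called genes under the naming rule kept its direction in the fits that left out samples, added the 5′ index, centred the arrays, left out dim probe sets or changed the moderation; the mean of all probe sets was used for counts only. The precision was limited by the 2 lines: leaving out each cell line in turn gave 336 to 345 probe sets higher and 126 to 138 lower, and 103 to 107 genes higher and 34 to 53 lower, with the remaining line assumed to vary like the other groups, while leaving out each tumor in turn gave 782 to 934 probe sets higher and 526 to 621 lower. At an adjusted p under 0.05, 1931 probe sets were higher and 1539 lower. With a difference of at least 2-fold also required, 350 probe sets were lower, and with arrays of full 5′ signal alone, 337 probe sets and 95 genes were lower. The number of lower genes that tracked a cell type score was 26 with a correlation of 0.7 in place of 0.6. All other alternatives kept the counts within 1.5 times: the 17 osteosarcoma samples alone, the 5′ index as a covariate, centred arrays, dim probe sets left out, trend and robust moderation, the mean of all probe sets of a gene and no centring within the 5′ classes. The counts of genes with a line left out, with full 5′ arrays, with the 5′ covariate and with centred arrays were chosen after seeing the data. Between the main comparison and the full 5′ arrays, 208 higher and 78 lower genes were shared. Of the 99 called genes, 83 were called among the 17 osteosarcoma samples alone, 94 with centred arrays, 92 with trend and robust moderation and 99 with the 5′ covariate or without dim probe sets. No paired analysis was possible because the tumors carry no replicate numbers in the labels and no source used here pairs a line with a tumor. RMA compresses dim signals, so that differences near the floor of the scale are underestimates.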

Other observations

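Measured genes next to 3 of the named genes, by their order in RefSeq's gene table of the dog, were listed after the values had been seen, as a description of single arrays with no test. Around RB1, whose brightest probe set was low in cell line 2, cell line 2 alone was below all tumors for 3 of 12 measured neighbours, cell line 1 alone for 1 and both lines for 1. The 3 were FNDC3A (4.90 in cell line 1 and 4.15 in cell line 2, lowest tumor 4.75), CDADC1 (5.72 and 5.41, lowest tumor 5.66) and KPNA3 (8.53 and 8.27, lowest tumor 8.28), all on the same side of RB1. They were not an unbroken run, and KPNA3 was below the lowest tumor by a narrow margin only. EBPL, between CDADC1 and KPNA3, lay within the range of the tumors in cell line 2, at 7.60 against 7.42 to 9.23. So did SPRYD7 (5.44 against 5.02 to 6.33) and TRIM13 (6.16 against 5.43 to 6.92), further out on that side. No share over all genes is given for 1 line alone below all tumors, here or for MTAP below, so these counts have no background. Both lines were below all tumors for the nearest gene on the other side of RB1, ITM2B (10.45 and 10.80 in cell lines 1 and 2). MED4, the next, lay within the range of the tumors (8.01 in cell line 1 and 8.10 in cell line 2). MTAP, low in cell line 1, lies beside CDKN2A and CDKN2B in that table, neither of which has a probe set with its symbol. Its nearest measured neighbours SLC24A2 (4.26 and 4.38) and ELAVL2 (3.51 and 3.41) read near the floor in both lines, and ELAVL2 did so in the tumors too. For 0 of its 12 measured neighbours was cell line 1 alone below all tumors.

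NUP107, a nuclear pore protein that was called higher (difference 2.97 ± 0.53, adjusted p = 0.00106; adjusted p = 0.0956 without cell line 1), read 11.06 in cell line 1 and 9.05 in cell line 2, against 5.89 to 9.24 in the tumors (median 7.09). It lies near MDM2, which encodes the ligase that degrades p53, and MDM2 read 11.48 in cell line 1 and 8.75 in cell line 2 against 7.89 to 12.11 in the tumors (median 9.004). Of all 6540 genes, 464 (7.09%) were more than 2-fold higher in cell line 1 than in cell line 2. Over 12 measured neighbours cell line 1 was more than 2-fold above cell line 2 for 6, which were MDM2 and RAP1B (11.74 and 10.15), MDM1 (8.39 and 5.90), SLC35E3 (8.61 and 6.88), YEATS4 (9.85 and 7.01) and CCT2 (13.30 and 11.93). CPSF6, between them in the same order, read 8.89 and 9.10, and the remaining neighbours were less than 2-fold apart. These neighbours were described without a measure of gene copy number, which was not analysed here.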
